A study of Mus musculus with 16 samples.

Results

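The cytosolic ribosomal protein genes were read in mouse cerebral cortex carrying either of 2 mutations of Aifm1, the X-linked gene of a mitochondrial intermembrane-space flavoprotein. Members were the protein-coding genes of the count table whose symbol starts with Rpl or Rps and continues with a number, optionally followed by a, x, y or l, plus Rplp0, Rplp1, Rplp2 and Rpsa. Kinases and pseudogenes were left out. This gave 80 of the 55573 genes in the table, 49 of the large and 31 of the small ribosomal subunit. The symbols of 3 other genes (Rps4l, Rpl6l and Rpl32l) match but are annotated as pseudogenes.

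The 16 libraries fall into 4 groups of 4. Hq-mut is the Harlequin mutant of the stock labelled B6CBACa Aw-J/A-Aifm1Hq/J, and Hq-WT its littermate wild type. In Aifm1-KI a knock-in allele removes the arginine at position 200, and Aifm1-WT is its littermate wild type. All were untreated cortices at about postnatal day 180, and the strain label of every library is C57BL/6. Whether every library came from its own animal is not labelled, so each p-value covers library-to-library spread, which may be technical. Aifm1 itself had 2.22 to 4.01 CPM (read counts scaled to library size by the TMM method) in Hq-mut libraries, against 23.1 to 25.8 CPM in Hq-WT libraries. In Aifm1-KI libraries it had 21.7 to 25.8 CPM, against 21.5 to 23.4 CPM in Aifm1-WT libraries, and gene counts cannot show a deletion of 1 codon. All 10 excitatory neuron markers and all 8 astrocyte markers had a mean above 1 CPM in each group, as did all 7 inhibitory neuron markers. In bulk tissue fewer cells of a type and less RNA per cell cannot be told apart.

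A cytosolic ribosome joins a small subunit, which reads the messenger RNA, to a large subunit, which makes the peptide bond, and each subunit holds ribosomal RNA and a fixed set of proteins. Ribosomal protein mRNAs are among the best known mRNAs with a 5′ terminal oligopyrimidine start: transcription begins at a C followed by a run of pyrimidines, and the kinase mTOR controls their translation through it. Mammalian genomes also hold many processed copies of these genes, so that a short read from a ribosomal protein mRNA can match several places.

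The annotated start sites of 60 members could be read from the RefSeq promoter table on GRCm38.p6. A run of at least 8 pyrimidines (C or T) within 25 bases of the start on the coding strand was found in 53.3% of these members, against 22.3% of all 27025 genes in the table. On the other strand the shares were 8.3% of members and 24.4% of all genes. A C at the start base followed by 4 pyrimidines was found in 21.7% of members and in 3.0% of all genes. The pentamer CTTTC, the pentamer CTTTT, the pentamer CCTTT, the pentamer TTCCT and the pentamer CTTCC, which can overlap one another, were searched in the same 50 bases: at least 1 of them was found in 58.3% of members and 28.7% of all genes on the coding strand, and in 35.0% of members and 29.7% of all genes on the other strand. The lines below show the 30 bases around the start, 15 on each side, for 6 members on which the results turn, with the longest pyrimidine run in capitals. The run is long and lies at the start in Rpl14, Rpl15 and Rps18, long but upstream in Rpl4, and short in Rps2 and Rpl26.
Rpl14 (chr9:120571502-120571531, plus strand): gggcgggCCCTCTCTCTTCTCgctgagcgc
Rpl15 (chr14:18270972-18271001, minus strand): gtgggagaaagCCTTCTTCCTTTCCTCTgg
Rps18 (chr17:33955651-33955680, minus strand): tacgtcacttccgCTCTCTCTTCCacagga
Rpl4 (chr9:64173372-64173401, plus strand): TTCCTTTTCCTgtgggagcagccgggtaga
Rps2 (chr17:24720048-24720077, plus strand): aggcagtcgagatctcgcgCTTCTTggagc
Rpl26 (chr11:68901551-68901580, plus strand): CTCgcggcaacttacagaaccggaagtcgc

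Most of the counts of the family came from few members. Over 16 libraries the mean level was at least 100 CPM in 5 members, 10 to 100 CPM in 31, 1 to 10 CPM in 34 and under 1 CPM in 10, with a median of 9.0 CPM. The 6 highest members held 50.6% of all member counts. Per length of the main annotated transcript, Rpl8, a large-subunit protein beside the peptidyl transferase centre, was highest at 254 CPM per kb. Rplp1 of the P-stalk, the arm of the large subunit that recruits elongation factors, followed at 248 CPM per kb, then Rps15 at 201 and Rpl4, a protein of the peptide exit tunnel, at 190 CPM per kb. The order of these neighbours is not firm. In the Aifm1-KI group Rpl8 had 222 ± 8.65 and Rplp1 217 ± 16.6 CPM per kb (SD, n = 4), and in the Hq-mut group Rplp1 had 293 ± 184 and Rpl8 285 ± 139 CPM per kb (SD, n = 4).

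The lowest levels per length were those of Rpl10l at 0.116, Rpl39l at 0.135 and Rpl3l at 0.224 CPM per kb. Rpl10l and Rpl39l are known as testis-enriched copies of Rpl10 and Rpl39, and Rpl3l as a muscle-enriched relative of Rpl3. Next came Rpl23a at 0.236 and Rpl35 at 0.341 CPM per kb, which are constitutive parts of the large subunit at the exit of the peptide tunnel.

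How much of each transcript is its own sequence differed widely. Of all 51-base windows of the main transcript (51 bases is the read length), the share found in no transcript of another gene ran from 1.4% in Rps27 to 100%, with a median of 47.4%. The 45 members with under 50% such windows had a median of 6.09 CPM per kb, and the 35 members with at least 50% had 21.0 CPM per kb. The Spearman correlation of the share with the level per kb was 0.313 over 80 members, and 0.472 over the 76 members without the suffix l, as a description across genes that share libraries and copies. There were exceptions on both sides: Rplp1 was second in level with 40.5% of its windows its own, and Rps29 had 0.744 CPM per kb with 64.4%. Scaled by windows that are their own, the median level was 37.0 CPM per 1000 windows, and 8 of the 10 highest members per kb were also among the 10 highest by windows.

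**Figure D1:**
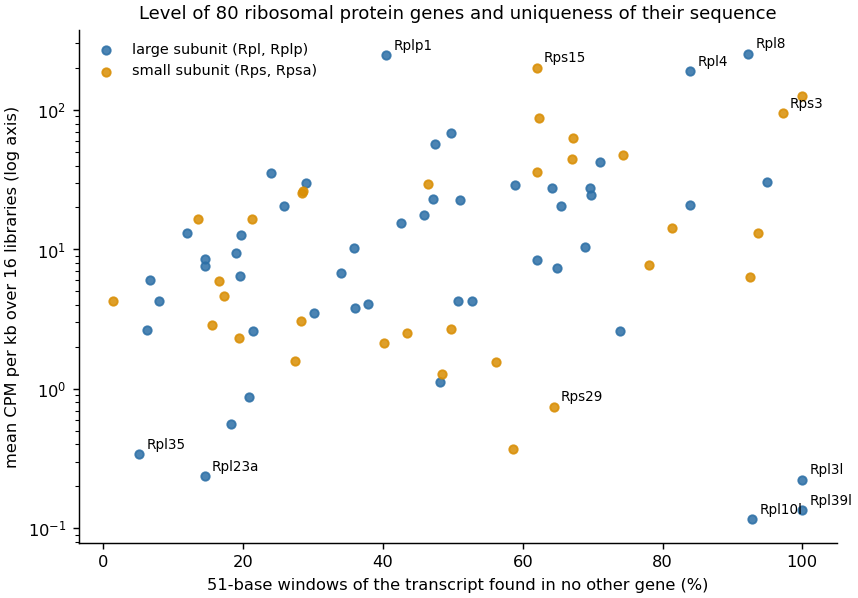
Mean CPM per kb of the main transcript over 16 libraries (log axis) against the share of 51-base windows found in no other gene, 1 point a gene, for 80 ribosomal protein genes coloured by subunit. Rpl23a and Rpl35 lie low at 14.5% and 5.1%, while Rpl10l, Rpl39l and Rpl3l lie low at 92.8%, 100% and 100%.

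Annotated pseudogenes share at least 1 such window with 77 of the 80 members (1068 copies in all), and together they had a mean of 786.6 CPM, beside 1991.6 CPM for the members. In 31 members the copies together had more CPM than the gene. Rpl14-ps1 had 77.9 CPM where Rpl14, a large-subunit protein, had 23.0 CPM, and Rpl3-ps1 had 37.3 CPM where Rpl3, a protein near the peptidyl transferase centre, had 11.5 CPM. Gm14303 had 53.4 CPM where Rps29 had 0.290 CPM, and Rpl38-ps2 had 20.9 CPM where Rpl38 had 0.407 CPM. Reads of a gene and of its copy cannot be told apart from these counts where their sequences are the same, so each member's level is uncertain to that extent.

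Before any contrast, a Harlequin library stood apart. Ribosomal protein genes took 0.364% of all counts in Hq-mut 2, against 0.153% to 0.168% in the other Hq-mut libraries. Among Hq-WT libraries the share was 0.265% in Hq-WT 2 and 0.173% to 0.193% in the others. It was 0.175% to 0.189% in Aifm1-KI libraries and 0.186% to 0.201% in Aifm1-WT libraries. In Hq-mut 2, 73 of 75 members were above their own 16-library mean, by a median of 0.79 (log2 CPM), and in Hq-WT 2 it was 69 of 75, by 0.47. The same libraries were high for other groups of genes. In Hq-mut 2 the median deviation was 0.82 over 259 other protein-coding genes with at most 1000 bases of exon and 0.69 over the mitochondrial ribosomal protein genes, and in Hq-WT 2 it was 0.43 and 0.42. Choroid plexus markers summed to 381 CPM in Hq-mut 2 and 5510 CPM in Hq-WT 2, and to between 6.72 and 2870 CPM in the other 14 libraries. Summed astrocyte markers were lowest in these libraries, at 3440 CPM in Hq-mut 2 and 3260 CPM in Hq-WT 2. The other 14 had 4650 to 6750 CPM. By mean log2 CPM, astrocyte markers were lowest in Hq-mut 1 at 7.05, beside 7.37 in Hq-mut 2 and 7.06 in Hq-WT 2. Inhibitory neuron markers had their highest mean log2 CPM in Hq-mut 2 at 6.75 and Hq-WT 2 at 6.66, with 6.11 to 6.51 in the other 14. Their sum was 996 CPM in Hq-mut 2 and 970 CPM in Hq-WT 2, but 981 CPM in Aifm1-KI 2. The part of short transcripts, cell types or RNA quality in the high ribosomal protein level was not tested.

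**Figure D2:**
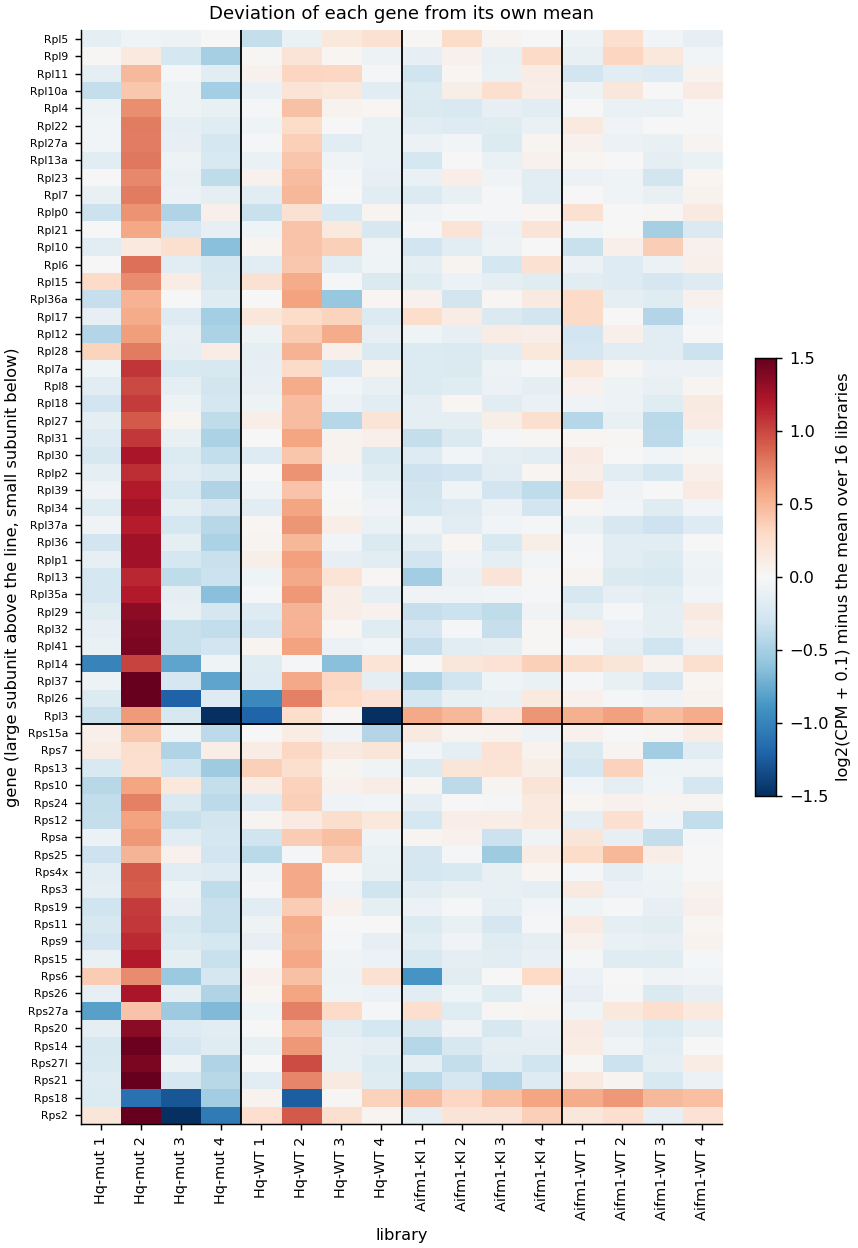
Deviation of each gene's log2(CPM + 0.1) from its mean over 16 libraries, for 63 of the 66 members with a mean log2 CPM above 1. Rows are genes, split by subunit, columns are libraries in groups of 4. Nearly every row is red in Hq-mut 2 and paler red in Hq-WT 2, while Rps18, Rps2, Rpl3, Rpl14 and Rpl26 each break the pattern in some Harlequin-line libraries.

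In the Harlequin contrast the 72 members tested lay on both sides of 0: the median log2 fold change of Hq-mut over Hq-WT was 0.00, 38 members were higher and 34 lower, and 51.6% of all genes tested were higher. By edgeR's quasi-likelihood test with the replicate number as a block, 0 members passed a Benjamini-Hochberg adjusted p of 0.05, where 0.0167% of all 17969 genes did. By DESeq2 it was also 0 members. Without the low-count filter 2 of the 80 members passed by edgeR, Rps2 and Rps18, both lower, as did 368 of the 55573 genes in the table. The filter itself kept 72 members and 17969 genes. At an unadjusted p under 0.05 with the filter there were 2 members, both lower, beside 7.97% of all genes. In no member did all 4 Hq-mut libraries lie beyond all 4 Hq-WT libraries, which was so in 1.58% of all genes (0.723% lower and 0.857% higher). A fold change of at least 0.5 in size was found in 3 of 72 members and in 5.06% of all genes.

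The level behind this median of 0.00 differed from pair to pair. Within pair 2 the median difference of log2 CPM, Hq-mut minus Hq-WT, was 0.44 and 66 of 72 members were higher. Within pairs 1, 3 and 4 it was -0.11, -0.20 and -0.22, with 22, 10 and 10 of 72 members higher, where 52.7% to 54.5% of all genes were higher. Without pair 2 the median fold change was -0.19 and 0 members were called. The direction of the family thus rested on pair 2.

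**Figure D3:**
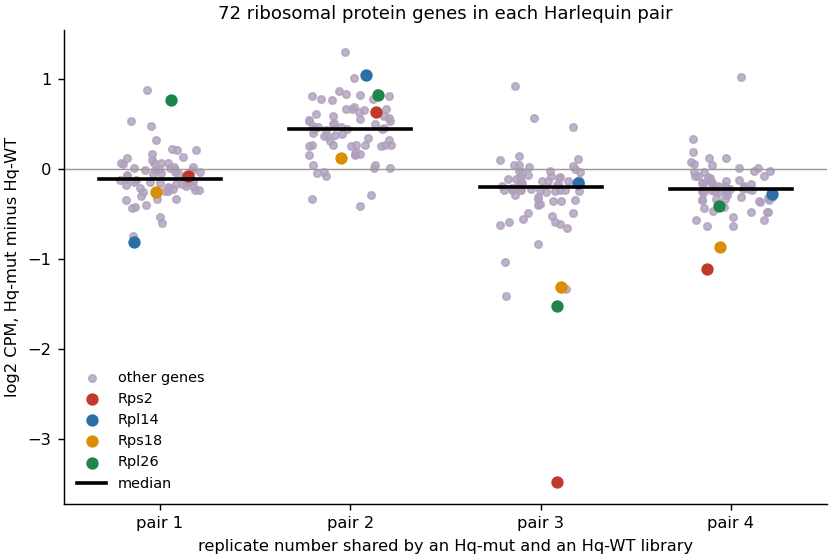
Difference of log2 CPM, Hq-mut minus Hq-WT, for 72 members in each of the 4 Harlequin pairs that share a replicate number. Black lines are medians (-0.11, 0.44, -0.20 and -0.22), and Rps2 lies at -3.48 in pair 3 and -1.11 in pair 4.

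The member with the smallest p was Rps27a, which is made as a fusion of ubiquitin with a small-subunit protein. It had 1.28, 3.18, 1.57 and 1.44 CPM in Hq-mut 1 to 4, against 2.23, 4.01, 2.87 and 2.28 CPM in Hq-WT 1 to 4. Each mutant library was below the wild type of its number, and the groups overlapped through number 2. The log2 fold change was -0.66 (SE 0.18, unadjusted p = 0.00627, adjusted p = 0.528 by edgeR), and -0.79 without number 2 (adjusted p = 0.191). Of the 72 tested, the members with the same sign in all 4 pairs were Rps27a, Rpl10, an X-linked protein that joins the large subunit late, and Rpl9, all lower, and these 3 of 72 stand beside 18.7% of all genes. Rps16 and Rps29, which the low-count filter kept out of this test, were also lower in all 4 pairs, by 0.09 to 1.02 on the log2 scale. They were near the floor, with 137 and 95 counts over 16 libraries. The other members kept out, Rpl24, Rpl35, Rpl23a, Rpl10l, Rpl39l and Rpl3l, each had pairs of both signs.

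Rps2, a small-subunit protein near the mRNA entry channel, had the lowest fold change, -0.75 (SE 0.51, adjusted p = 0.736 by edgeR). Without the low-count filter it was -0.73 with an adjusted p of 7.78e-05 by edgeR. It had 15.8, 41.0, 1.39 and 6.63 CPM in Hq-mut 1 to 4, against 16.7, 26.5, 16.5 and 14.4 CPM in Hq-WT 1 to 4. Hq-mut 3 and 4 were far below every other library of the series, and Hq-mut 1 was level with the wild types, so the fold change is that of a mixed group. Without number 3 the log2 fold change was -0.16, without number 2 it was -1.26, and without the block it was -0.23. Rps18, a protein of the head of the small subunit, had 7.32, 3.85, 3.42 and 5.87 CPM in Hq-mut 1 to 4, against 8.81, 3.54, 8.60 and 10.8 CPM in Hq-WT 1 to 4. The log2 fold change was -0.62 (SE 0.22, unadjusted p = 0.0227, adjusted p = 0.591 by edgeR), and 3 of the 4 pairs were lower in the mutant. Without number 3 it was -0.40, and without the low-count filter -0.61 with an adjusted p of 0.0148 by edgeR. Hq-mut 3 also had the highest sum of striatal markers in the series, 856 CPM, against 281 to 309 CPM in Hq-WT libraries. In Hq-mut 4 the sum was 330 CPM. The part of striatal tissue in these differences was not tested. Other short genes had a median of 0.07 in this contrast, with 160 of 234 higher, and -0.04 without number 2, with 93 of 229 higher.

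Of the other extremes, Rps28 stood at -0.40 and Rps13 at -0.38 on the log2 scale. The highest were Rpl28 at 0.21, Rpl3 at 0.19, Rps20 at 0.18, Rps27 at 0.16 and Rpl7a at 0.14, with standard errors of 0.15 to 0.25. The P-stalk genes Rplp0, Rplp1 and Rplp2 had log2 fold changes of 0.05, 0.01 and 0.02, and all 3 were below 0 without number 2, with a median of -0.12. Rpl5 and Rpl11, which bind the 5S ribosomal RNA and can hold back the p53 regulator MDM2, had -0.08 and -0.14, and Rpl11 had 0.07 with the counts of its copies added. With copies added, 18 of the 72 members changed sign. Rps6, the substrate of the S6 kinases downstream of mTOR, had -0.08, and Rpsa, also known as the laminin receptor, -0.10. The X-linked members Rpl10, Rpl36a, Rpl39 and Rps4x had -0.33, -0.07, 0.04 and -0.01, and all 4 were below 0 without number 2.

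In the knock-in contrast all differences were small: the 71 members tested lay between -0.37 and 0.32 on the log2 scale, with a median of -0.04 and a median standard error of 0.10. In Aifm1-KI 29 members were higher and 42 lower than in Aifm1-WT, beside 51.6% of all genes higher. By edgeR 0 members passed an adjusted p of 0.05, as did 0.0% of all 18383 genes, and by DESeq2 0 members did. At an unadjusted p under 0.05 there were 5 members, all lower, beside 11.4% of all genes. Other short genes stood at the same median: 95 of 241 were higher, with a median of -0.04.

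Rpl39, an X-linked protein of the peptide exit tunnel, had 10.2, 11.8, 10.1 and 9.47 CPM in Aifm1-KI 1 to 4, against 14.1, 11.9, 12.3 and 13.5 CPM in Aifm1-WT 1 to 4. The groups did not overlap, but 11.8 and 11.9 CPM are next to each other. The log2 fold change was -0.30 (SE 0.09, unadjusted p = 0.0104, adjusted p = 0.368 by edgeR). Rpl22, a large-subunit protein that also binds other RNAs, had 54.8, 53.7, 53.8 and 57.0 CPM in Aifm1-KI 1 to 4, against 67.8, 59.2, 61.0 and 61.6 CPM in Aifm1-WT 1 to 4. Its log2 fold change was -0.17 (SE 0.06, unadjusted p = 0.0111, adjusted p = 0.368 by edgeR). The other members under the unadjusted threshold were Rps21 at -0.28, Rps14 at -0.19 and Rpl4 at -0.12.

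Aifm1-KI libraries lay wholly below Aifm1-WT libraries in 5 members, among them Rpl22, Rpl39, Rpl4 and Rps3, and wholly above in Rps23, a protein of the decoding centre, so in 6 of 71 members, beside 4.87% of all genes (2.83% lower and 2.03% higher). In 0 of 71 members was the fold change 0.5 or more in size, beside 8.1% of all genes. Rpl4 had 254 ± 8.54 CPM in Aifm1-KI and 279 ± 11.2 CPM in Aifm1-WT (SD, n = 4 each), and Rps3, which lines the mRNA entry channel, had 161 ± 2.71 CPM in Aifm1-KI and 178 ± 13.2 CPM in Aifm1-WT. Rps23 had 1.33 ± 0.233 CPM in Aifm1-KI and 1.06 ± 0.0771 CPM in Aifm1-WT. Its lowest Aifm1-KI library, at 1.16 CPM, was next to its highest Aifm1-WT library, at 1.15 CPM. Its log2 fold change was 0.32 (SE 0.18). The lowest fold changes were Rps25 at -0.37, Rpl39 and Rps21, then Rpl29 at -0.22 and Rps14. Above 0 followed Rpl21 at 0.27, Rps7 at 0.24, Rpl27 at 0.22 and Rpl19 at 0.19. Rplp0, Rplp1 and Rplp2 had -0.10, -0.00 and -0.11, Rpl5 and Rpl11 0.09 and 0.11, Rps6 -0.07 and Rpsa 0.03. With copies added Rpl11 and Rpsa each had -0.09, and 15 of the 71 members changed sign. The 4 X-linked members were all below 0 (Rpl10 at -0.18, Rpl36a at -0.01, Rps4x at -0.08). Aifm1-KI 2 and 4 had striatal markers summing to 641 and 591 CPM, against 227 to 277 CPM in Aifm1-WT libraries, and oligodendrocyte markers at 1860 and 2730 CPM, against 3510 to 4790 CPM in Aifm1-WT libraries. Without both the median of the members was -0.10, and Rpl11 had -0.06. Of 8 liver markers, among them Ttr, which is also on the choroid plexus list, 4 had a mean above 1 CPM in Aifm1-KI and 8 in Aifm1-WT. Their mean log2 CPM was -0.44 to 1.22 in Aifm1-KI libraries, against 1.32 and 1.34 in Aifm1-WT 3 and 4 and at least 4.11 in Aifm1-WT 1 and 2. The value of 1.22 was that of Aifm1-KI 2, where choroid plexus markers summed to 2870 CPM. The part of these cell types in the differences was not tested.

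**Figure D4:**
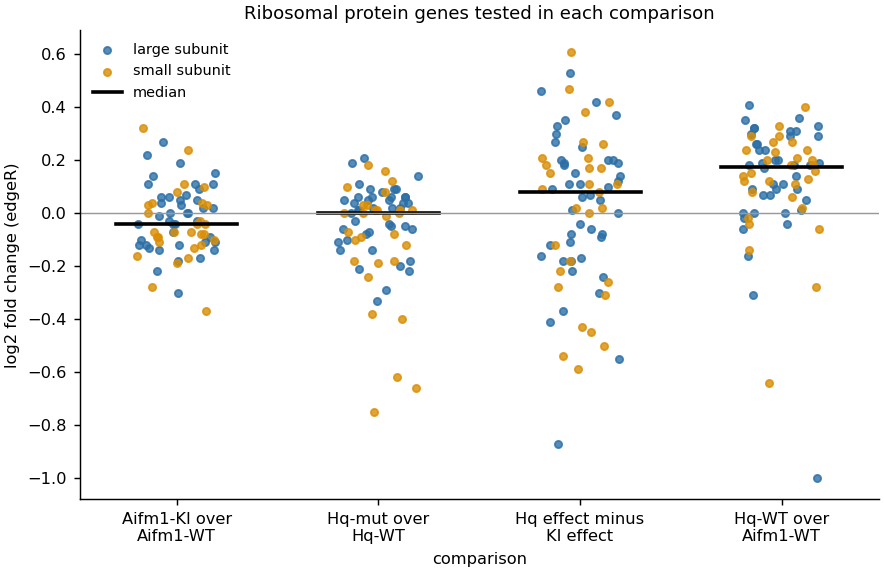
Log2 fold change by edgeR of every member tested in each of the 4 comparisons, 1 point a gene coloured by subunit, with the median as a black line (-0.04, 0.00, 0.08 and 0.17). The knock-in comparison is the narrowest, and Rpl3 lies lowest at -1.0 in the comparison of the wild types.

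Whether the mutation effects differ was tested directly, as the Harlequin effect minus the knock-in effect in 1 fit of all 16 libraries. Of 75 members 0 were called by edgeR, where 0.0105% of all genes were, and 0 by DESeq2. At an unadjusted p under 0.05 it was 0 members, beside 5.08% of all genes. The median difference was 0.08, with 46 of 75 members above 0 (50% of all genes), and the size was at least 0.5 in 7 members and in 15.4% of all genes. With a gene-length offset the median was -0.05, and without Hq-mut 2 it was -0.30. This fit has no replicate block, and its median standard error was 0.35. With the block the standard error was 0.22, the median difference 0.02, and 0 members were called, with 1 member at an unadjusted p under 0.05 beside 10.9% of all genes. The highest values were Rps21 at 0.61, Rpl37 at 0.53, Rps14 at 0.47, Rpl39 at 0.46 and Rpl29 at 0.42. All 5 were higher in Hq-mut 2 than in any other library: Rps21 had 57.5 CPM there, against 12.8 to 14.9 CPM in the other Hq-mut libraries. The lowest were Rpl24 at -0.87 (SE 0.56), Rps18 at -0.59, Rpl35 at -0.55 (SE 0.8), Rps27a at -0.54 and Rps23 at -0.50. Rpl24 and Rpl35 were near the floor, with 134 and 105 counts over 16 libraries. For Rps27a the adjusted p was 0.952 by edgeR, and 0.447 with the block. Rpl11 stood at -0.24, and at 0.29 with copies added, where 15 of 75 members changed sign.

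The wild types of the lines were set against each other as well, and here line and any day of processing cannot be told apart. Of 72 members 60 were higher in Hq-WT than in Aifm1-WT (51.0% of all genes), with a median log2 fold change of 0.17. Without Hq-WT 2 that median was 0.02. Mitochondrial ribosomal protein genes were higher in 72 of 79 (median 0.14), and other short genes in 156 of 237 (median 0.12). Of 30 ribosome biogenesis genes 28 were higher (median 0.08), and of 17 mTOR pathway genes 7 were (median -0.01). By edgeR 0 members passed an adjusted p of 0.05, where 0.558% of all 18106 genes did, and by DESeq2 0 members did. Without the low-count filter 1 of the 80 members, Rpl3, passed by edgeR, as did 560 of the 55573 genes in the table. The filter itself kept 72 members and 18106 genes. At an unadjusted p under 0.05 with the filter there were 5 members, beside 12.7% of all genes: Rpl3 and Rps18 lower, and 3 higher, among them Rpl37a at 0.41 and Rpl15 at 0.36. The groups did not overlap in 4 of 72 members, Rpl3 and Rps18 lower and Rps10 and Rps7 higher, beside 7.28% of all genes (4.59% lower and 2.69% higher). A fold change of at least 0.5 in size was found in 2 of 72 members and in 9.46% of all genes.

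Rpl3 had 4.41, 12.3, 10.4 and 3.50 CPM in Hq-WT 1 to 4, against 14.9, 15.8, 14.3 and 15.1 CPM in Aifm1-WT 1 to 4. Hq-WT 1 and 4 were far lower than the rest. The log2 fold change was -1.0 (SE 0.32, unadjusted p = 0.00952, adjusted p = 0.217 by edgeR), and with the counts of its copies added it was -0.14 (adjusted p = 0.720). Without the low-count filter it was -0.98 with an adjusted p of 0.0243 by edgeR. Rpl3-ps1 had 36.2, 49.5, 34.8 and 30.3 CPM in Hq-WT 1 to 4, against 37.3, 34.7, 32.8 and 35.6 CPM in Aifm1-WT 1 to 4. Rps18, whose Hq-WT values are given above, had 12.5, 13.4, 11.9 and 11.6 CPM in Aifm1-WT 1 to 4. Its log2 fold change was -0.64 (SE 0.26, adjusted p = 0.332 by edgeR), and -0.37 without Hq-WT 2. Rpl14 stood at -0.31, at -0.19 without Hq-WT 3 and at 0.08 with copies added, and 11 of the 72 members changed sign with copies added. Further low values were Rps25 at -0.28 and Rplp0 at -0.16. Toward the other end were Rps7 at 0.40 and Rps27l, a paralog of Rps27 known as a p53 target, at 0.33.

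The widest variation of single members was between libraries of the Harlequin line. Rps2 varied mainly among the mutants, and Rps18, Rpl26 and Rpl3 among both mutants and wild types. After the median of all members was taken from each library, the range of log2 CPM over 8 libraries had a median of 0.60 in the Harlequin line and 0.33 in the knock-in line, over 66 members with a mean log2 CPM above 1. It was at least 1 (2-fold) in 10 of 66 members in the Harlequin line and in 0 in the knock-in line. The shares of all 14169 genes at that level were 22.8% and 10.5%. All genes were centred on their own median, which leaves shifts of the whole family in, so these shares are not on the members' scale. Rpl8 had 173 to 419 CPM in the Harlequin line, but a range of 0.14 once the members' median was taken out. With each set centred in its own way, the range was wider in the Harlequin line in 78.8% of members and 77.0% of all genes. A wider spread in this line was thus found across all genes too. The widest members were Rps2 at 3.71 in the Harlequin line and 0.33 in the knock-in line, Rps18 at 2.48 and 0.30, and Rpl26 at 1.72 and 0.22. Next came Rpl3 at 1.43 and 0.45, Rpl37 at 1.43 and 0.31, Rpl5 at 1.3 and 0.5, Rpl10 at 1.17 and 0.84, and Rpl14 at 1.15 and 0.18. Rpl14 had 10.9, 44.3, 12.6 and 20.9 CPM in Hq-mut 1 to 4 and 19.2, 21.5, 14.1 and 25.3 CPM in Hq-WT 1 to 4, against 21.7 to 28.1 CPM in Aifm1-KI and 22.6 to 26.2 CPM in Aifm1-WT libraries. Rps2 and Rps18 both lie on chromosome 17, starting at bases 24718116 and 33951999, and Rpl3 and Rpl37 both on 15. Rpl26 lies on 11, Rpl5 on 5, Rpl10 on X and Rpl14 on 9. Whether genes of the same chromosome varied together by inheritance was not tested.

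In Rpl26, a large-subunit protein that also binds p53 mRNA, the lowest libraries also had counts at a copy. Rpl26 had 12.5, 43.2, 6.16 and 12.6 CPM in Hq-mut 1 to 4 and 7.34, 24.4, 17.8 and 16.8 CPM in Hq-WT 1 to 4, against 13.7 ± 1.68 CPM in Aifm1-KI and 14.5 ± 0.56 CPM in Aifm1-WT (SD, n = 4 each). Its processed pseudogene Gm15772 (GRCm38 chr5:3236431-3236868, plus strand), which shares 60.1% of the windows of Rpl26, had 8.19 CPM in Hq-mut 3 and 9.03 CPM in Hq-WT 1, and at most 0.199 CPM in the other 14 libraries. Gene and copy together had 14.4 CPM in Hq-mut 3 and 16.4 CPM in Hq-WT 1. These are a mutant and a wild type of different numbers.

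In CPM, Rpl15, a large-subunit protein of the inner core, was alike within each replicate number. It had 56.1, 75.3, 49.9 and 38.9 CPM in Hq-mut 1 to 4 and 54.1, 68.1, 45.3 and 39.5 CPM in Hq-WT 1 to 4. In the 8 libraries of the knock-in line it had 38.8 to 43.3 CPM. Both libraries of pair 4 lay in that range and the other 6 above it. With the members' median taken from each library, Rpl15 ran from -0.20 to 0.01 (log2) in the knock-in line. On that scale Hq-mut 2 at -0.21 and Hq-WT 3 at -0.04 were not above the knock-in line. Their partners Hq-WT 2 and Hq-mut 3 stood at 0.09 and 0.28. The copy Gm8420 (GRCm38 chr1:51940664-51941261, minus strand), which shares 4.0% of the windows of Rpl15, had 5.74, 11.7, 5.13 and 0.0844 CPM in Hq-mut 1 to 4 and 5.71, 8.78, 5.73 and 0.0486 CPM in Hq-WT 1 to 4, and at most 0.218 CPM in the knock-in line. Rpsa-ps10 (GRCm38 chr3:150072658-150073542, minus strand), a copy of Rpsa, had 27.3, 38.1, 26.2 and 1.52 CPM in Hq-mut 1 to 4 and 15.5, 40.7, 31.6 and 1.89 CPM in Hq-WT 1 to 4, and 1.41 to 2.66 CPM in the knock-in line. Both libraries of pair 4 lay in that range and the other 6 above it. Rpsa itself had 2.29 to 4.69 CPM in all 16 libraries. With copies added to the counts, the log2 fold change of Rpsa in Hq-WT over Aifm1-WT was 1.95 (adjusted p = 0.0858 by edgeR), and 0.21 without them.

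**Figure D5:**
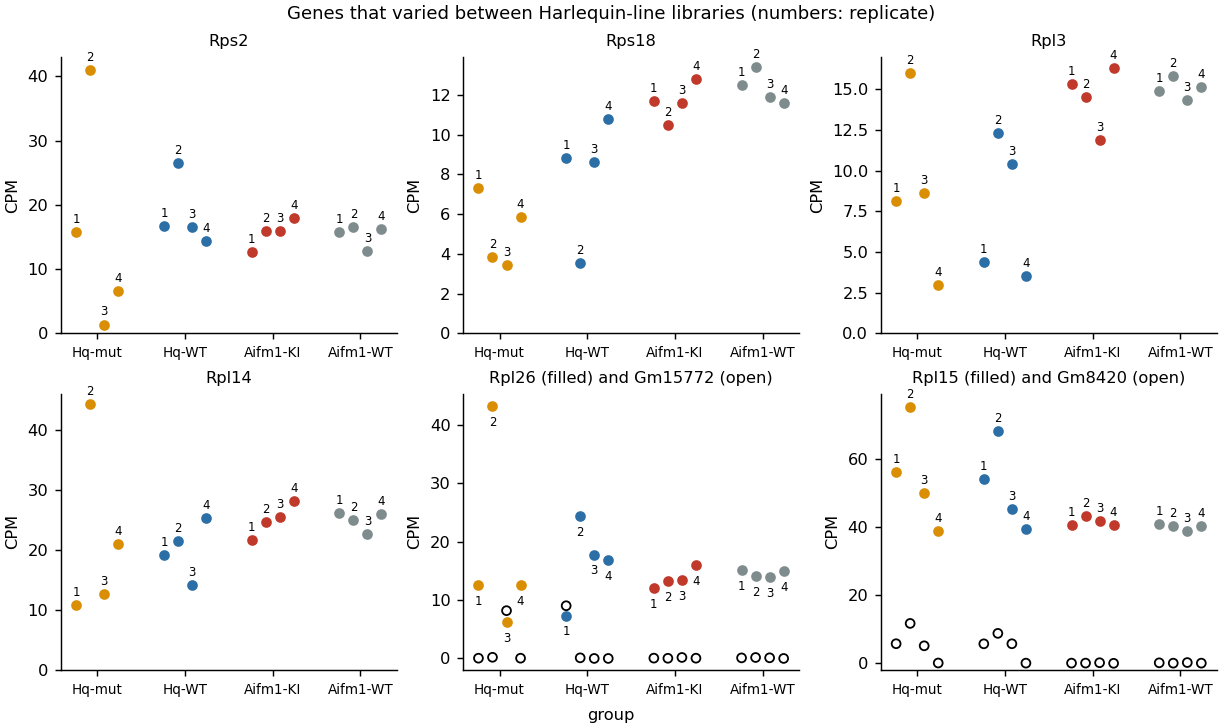
CPM of Rps2, Rps18, Rpl3, Rpl14, Rpl26 and Rpl15 in every library, with replicate numbers, and of the pseudogene copies Gm15772 and Gm8420 as open circles. The libraries of the knock-in line lie close together for each gene, while Rps2 is at 1.39 CPM in Hq-mut 3, and Gm15772 appears in Hq-mut 3 and Hq-WT 1 alone.

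Hq-mut 2 and Hq-WT 3 shared a further feature. Of the copies, 512 had at most 3 counts over the 8 libraries of the knock-in line. Together they had 25.7 CPM in Hq-mut 2 and 33.8 CPM in Hq-WT 3, and 3.46 to 9.45 CPM in the other 6 Harlequin-line libraries, and 10 and 15 of them reached 0.5 CPM in these libraries while 0 did in the other 6. Among the members, Rpl10l and Rpl39l showed it: Rpl10l had 0.834 CPM in Hq-mut 2 and 1.02 CPM in Hq-WT 3, and in each of the other 14 libraries 0.0 to 0.0404 CPM. Rpl39l had 0.715 CPM in Hq-mut 2 and 0.647 CPM in Hq-WT 3, and at most 0.146 CPM elsewhere. These are 33 counts of each gene over all libraries, and what these libraries share was not tested.

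The low-count filter left 5 members untested in all 4 comparisons: Rpl10l, Rpl39l, Rpl3l, Rpl23a and Rps29, with at most 102 counts each over 16 libraries. Rpl24, Rpl35, Rpl38 and Rps16 were tested in some comparisons. The filter asks for enough counts in as many libraries as the smallest group holds, so the members tested are not all members.

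Genes that work with the ribosomal proteins also gave no calls in the mutant contrasts. Of 30 ribosome biogenesis genes, such as Fbl and Ncl of the nucleolus, 0 passed an adjusted p of 0.05 by edgeR in either contrast. The median log2 fold change was 0.03 for Hq-mut over Hq-WT (0.00 without number 2) and 0.03 for Aifm1-KI over Aifm1-WT. Their smallest p belonged to Polr1a, the catalytic subunit of RNA polymerase I, at 0.20 in the Harlequin contrast (adjusted p = 0.612), and to Dkc1, the pseudouridine synthase of ribosomal RNA, at -0.21 in the knock-in contrast (adjusted p = 0.368). Of 17 mTOR pathway genes 0 were called, with medians of -0.00 for Harlequin (0.00 without number 2) and 0.01 for the knock-in. The smallest p belonged to Deptor, an mTOR inhibitor, at 0.35 in the Harlequin contrast (adjusted p = 0.618 by edgeR). In the knock-in contrast it belonged to Mtor at 0.11 (adjusted p = 0.426 by edgeR). Of 16 other genes with pyrimidine starts, such as elongation factors, 0 were called, with medians of 0.01 for Harlequin (-0.06 without number 2, with 3 of 16 higher) and 0.00 for the knock-in. Vim had their smallest p in the Harlequin contrast, at 0.35 (adjusted p = 0.523 by edgeR). Tpt1 had it in the knock-in contrast, at -0.28 (adjusted p = 0.380 by edgeR). Of 9 hosts of small nucleolar RNAs 0 were called, with medians of 0.03 for Harlequin (-0.11 without number 2) and 0.02 for the knock-in. Snhg1 had their smallest p for Harlequin, at -0.19 (adjusted p = 0.738 by edgeR), and Snhg5 for the knock-in, at 0.14 (adjusted p = 0.669 by edgeR). Of 79 mitochondrial ribosomal protein genes tested 0 were called in either contrast. They had a median of 0.06 with 62 of 79 higher in Hq-mut over Hq-WT (-0.01 with 37 of 79 higher without number 2), and -0.01 with 34 of 79 higher in Aifm1-KI over Aifm1-WT. Mrpl14 had their smallest p for Harlequin, at 0.52 (adjusted p = 0.528 by edgeR), and Mrpl28 for the knock-in, at -0.17 (adjusted p = 0.390 by edgeR).

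Fau, which encodes a small-subunit protein fused to a ubiquitin-like peptide and falls outside the symbol rule, had the widest change of these lists. It had 0.899, 0.993, 0.720 and 0.380 CPM in Hq-mut 1 to 4, against 6.64, 10.9, 0.647 and 0.340 CPM in Hq-WT 1 to 4. Hq-WT 1 and 2 alone were high, and in the knock-in line Fau had 0.328 to 0.845 CPM. The log2 fold change was -2.24 in Hq-mut over Hq-WT (adjusted p = 0.523 by edgeR) and 2.88 in Hq-WT over Aifm1-WT (adjusted p = 0.192).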

How the data were processed

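Cortical RNA was sequenced as 51-base single-end reads and, per the labels' protocols, libraries came from TRIzol RNA and a KAPA mRNA-seq kit. Per the series' design text the authors mapped reads to mm10 with STAR (2.6 in the submitters' processing notes) and counted genes with htseq-count. The deposited values are whole-number counts per gene, not normalized. No source used here names the annotation release, the strand setting or the treatment of reads with several placements. Total counts ran from 10671580 to 32551594 per library, and 0 rows named no gene.

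Symbols came from GENCODE M21 (GRCm38), matched for 55480 of 55573 IDs. All genes were fitted with edgeR 4.0.16 (R 4.3.3, TMM factors, default low-count filter by group, quasi-likelihood test, Benjamini-Hochberg adjusted p under 0.05). DESeq2 1.42.0 was an alternative. The Harlequin fit holds the replicate number as a block: same-numbered libraries deviated together (correlations of 0.358 to 0.494, other numbers -0.359 to 0.085). The knock-in fit has none (-0.02 to 0.082). On simulated counts the fits were checked for recovery of known changes. Log2 CPM used a prior count of 2. Windows of 51 bases were compared with all GENCODE M21 transcripts. Genes named were those called, the 5 highest and 5 lowest fold changes per comparison, the 5 highest and lowest levels per length, the role lists and members under the filter. For the other lists they were called genes, or else the smallest p in at least 1 mutant contrast. Rpl9, Rpl22, Rpl26, Rps3, Rps10, the copies and the spread within lines were picked after their values were seen. Members and lists were chosen with earlier results of these data known. Some members are not reported here by name. Each SD is taken between the libraries of a group, and each standard error is that of the edgeR fit.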

Additional observations from a re-analysis of the deposited data

Results flagged for a closer look

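Within a group of 4 libraries, a member was listed here when 1 library lay far from the other 3 (the gap to the nearest, divided by the range, was above Dixon's critical value). This held for 36 of 180 tests, which covered 44 named members and the family's share of counts, not all 80 members. Chance flags about 1 in 20 independent groups, but the members of a library move together, many were named for their values, and with 3 libraries at 0, as for Rpl10l, any count in the other gives a flag, so the number is not read against that share.

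Most came from Hq-mut 2. It had the highest share of counts from ribosomal protein genes, 0.364%, and it stood above the other Hq-mut libraries for the abundant members Rpl4 at 467 CPM, Rpl8 at 419 CPM, Rplp1 at 284 CPM, Rps15 at 221 CPM and Rps14 at 138 CPM. At middle levels it stood above them for Rps21 at 57.5 CPM, Rps20 at 57.2 CPM, Rplp2 at 55.0 CPM, Rps4x at 47.2 CPM, Rpl37 at 29.0 CPM, Rpl39 at 28.3 CPM, Rpl7a at 17.8 CPM, Rpl29 at 12.1 CPM and Rpl37a at 10.3 CPM. At low levels it did so for Rps27l at 9.77 CPM, Rpsa at 4.69 CPM, Rps27a at 3.18 CPM, Rps27 at 2.90 CPM, Rps28 at 1.39 CPM, Rpl10l at 0.834 CPM and Rpl39l at 0.715 CPM.

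Hq-WT 2 stood above the other Hq-WT libraries for Rpl4 at 391 CPM, Rpl8 at 308 CPM, Rps15 at 145 CPM, Rps14 at 77.9 CPM, Rplp2 at 40.4 CPM, Rps4x at 36.9 CPM, Rps27l at 7.19 CPM and Rps23 at 1.70 CPM. Hq-WT 3 did so for Rpl10l at 1.02 CPM.

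In the knock-in line the flags were few. Aifm1-KI 2 had 6.54 CPM of Rpl5, Aifm1-KI 4 had 5.19 CPM of Rpl28 and Aifm1-KI 1 had 0.0528 CPM of Rpl39l. Aifm1-WT 3 had 0.492 CPM of Rpl35, and Aifm1-WT 2 had 0.0404 CPM of Rpl10l, the one library of its group with any count of that gene. The causes were not tested.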

How the results depend on the processing

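The count of members called stayed at 0 in all 4 comparisons with DESeq2's size factors, with DESeq2, with a gene-length offset, with copies added to the counts and without each library or pair in turn. Without the low-count filter it was 2 of 80 in Hq-mut over Hq-WT by edgeR (Rps2 at -0.73 and Rps18 at -0.61, adjusted p = 7.78e-05 and 0.0148). In Hq-WT over Aifm1-WT it was 1 of 80 (Rpl3 at -0.98, adjusted p = 0.0243 by edgeR). The cause was not tested. The median of the members in Aifm1-KI over Aifm1-WT was -0.10 without Aifm1-KI 2 and 4 together, and -0.07 to -0.02 without single libraries. Without each pair the Harlequin median ran from -0.19 to 0.06. Without single libraries the difference of the effects ran from -0.30, without Hq-mut 2, to 0.22, and Hq-WT over Aifm1-WT from 0.02, without Hq-WT 2, to 0.22. With a gene-length offset the medians were -0.02 for the knock-in, -0.05 for Harlequin, -0.05 for the difference and 0.11 for the wild types. Without the replicate block the Harlequin median was 0.06, with 0 members called. With the replicate block it was -0.04 in the knock-in comparison, 0.02 in the difference and 0.15 between wild types, with 0 members called in each. Over all genes DESeq2 called 82, 32, 5 and 421 in the knock-in, Harlequin, difference and wild-type comparisons, against 0, 3, 2 and 101 by edgeR. Of the 55573 genes in the table, no filter gave 368 in the Harlequin and 560 in the wild-type comparison. Without Aifm1-KI 3 the knock-in count was 46, and without single libraries the wild-type count ran from 32 to 231. The median level of the members was 3.90 CPM per kb of all annotated exons, against 8.99 per kb of the main transcript. The planned count of windows unique in the genome was not run. The settings that add copies, use all annotated exons, or give other gene lists without pair 2 were chosen after seeing the data.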
